A study of Mus musculus with 8 samples.

Results

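The 31 genes described here encode the enzymes that make cholesterol and fatty acids, together with the proteins that regulate them, and they were measured in mouse vagal ganglia after an allergen challenge. They were taken by symbol, from a list of the mevalonate and sterol pathway, the SREBP regulators and the enzymes of fatty acid synthesis, out of 55335 genes in the count table. All 31 matched 1 row each, and all 31 passed the filter on low counts that left 17618 genes for testing. The HDM group was made of wild-type mice treated with HDM (commonly short for house dust mite), and its control group of wild-type mice given saline, with ganglia of both taken 1.5 h after challenge number 4. Each group had 4 libraries, each from 6 to 8 ganglia pooled from 3 to 4 mice, and each of the 4 labelled batches held 1 HDM and 1 saline library. A pool hides the spread between animals, and whole ganglia mix neurons, Schwann cells, satellite glia and other cells.

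Cholesterol is built from acetyl-CoA through mevalonate, farnesyl diphosphate, squalene and lanosterol, and saturated and unsaturated fatty acids are built from malonyl-CoA. Both pathways are switched on by the SREBP transcription factors, which the escort protein SCAP carries to the Golgi for cleavage when sterols are scarce, and which INSIG proteins hold back in the endoplasmic reticulum when sterols are plentiful. In peripheral nerves and ganglia, myelinating Schwann cells make much of their own cholesterol and fatty acids, since myelin is rich in both.

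Library totals were 23952130 to 26670634 counts in HDM and 26868337 to 31281281 counts in saline. All 10 neuron markers and all 14 myelinating Schwann cell markers passed the filter. Sterol and fatty acid genes were well covered: the lowest count of any of the 31 in any library was 349. CPM below are counts scaled to library size with TMM factors, and errors are SDs over the 4 libraries of a group. RPKM are CPM per kilobase of the deposited exon length, so the ranks of genes by RPKM depend on that length. The median level of the 31 genes was 32.7 RPKM, against 4.06 RPKM over all tested genes.

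Levels differed widely along the pathways, and for most genes little between the groups. The stearoyl-CoA desaturase Scd2 stood highest, at 382 ± 15 RPKM in HDM and 383 ± 22.5 RPKM in saline. Its close relative Scd1 had 228 ± 10.4 RPKM in HDM and 229 ± 14.5 RPKM in saline, and the cytosolic HMG-CoA synthase Hmgcs1 had 206 ± 5.49 RPKM in HDM and 204 ± 13 RPKM in saline. Squalene synthase, Fdft1, followed at 93 ± 2.39 RPKM in HDM and 92.6 ± 3.18 RPKM in saline. Scd2 and Fdft1 lay apart from their neighbours by far more than the SDs, whereas the ranges of mean ± SD of Scd1 and Hmgcs1 overlapped in saline. At the other end, Fdps had 3.47 ± 0.160 RPKM in HDM and 3.52 ± 0.368 RPKM in saline, below every other gene of the set. Of its exon bases, 26.7% are shared with the same-strand gene Gm43738, which had 0 counts in all libraries, so reads of the shared part may not have been assigned to Fdps, and its level is uncertain. The next lowest levels were those of Lss, with 8.28 RPKM in HDM and 8.54 RPKM in saline, and of Scap, with 9.60 RPKM in HDM and 8.61 RPKM in saline. The rank of Lss rests on an exon length of 10787 bases. In CPM it had 89.3 in HDM and 92.1 in saline, above Mvd with 59.0 in HDM and 49.1 in saline.

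**Figure D1:**
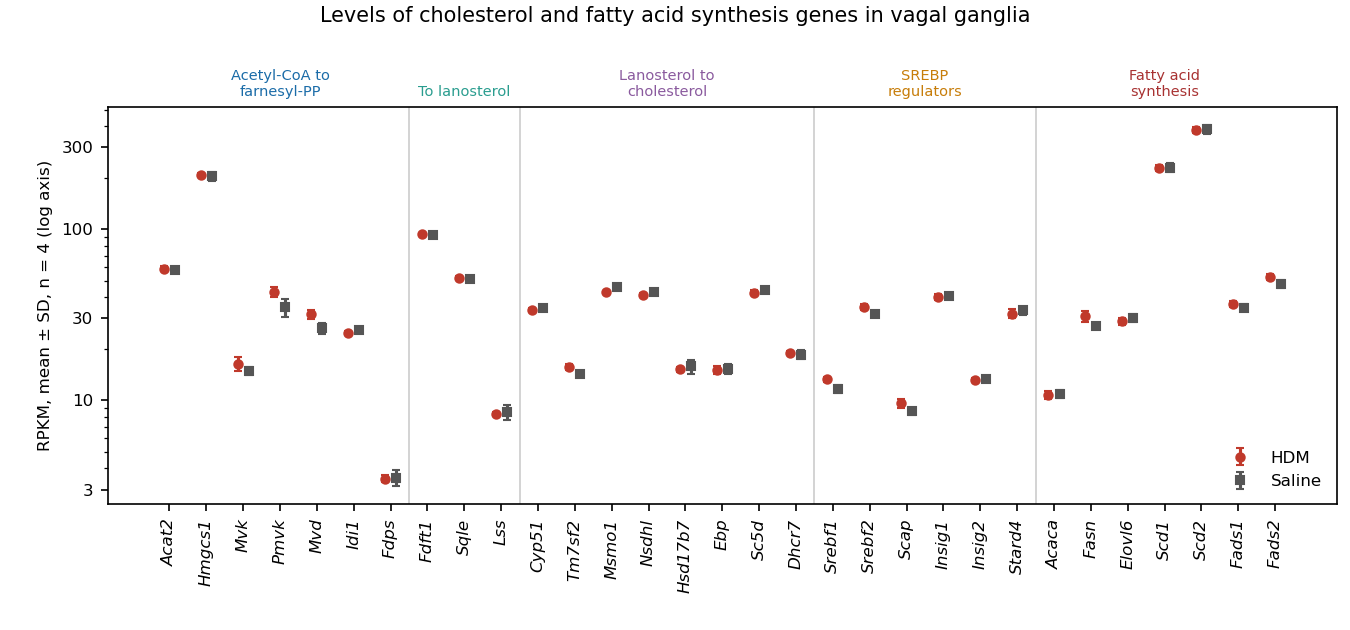
Levels of the 31 genes in HDM (circles) and saline (squares), as mean RPKM with SD (n = 4 libraries each) on a log axis, ordered by pathway step. Scd2 lies highest, at 382 RPKM in HDM and 383 RPKM in saline, and Fdps lowest, at 3.47 RPKM in HDM and 3.52 RPKM in saline.

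The comparison asked whether transcripts of lipid synthesis had changed in the ganglia soon after the last HDM challenge. Mvd, which encodes mevalonate diphosphate decarboxylase, rose 1.203-fold in HDM and was the only gene of the 31 past the threshold (edgeR quasi-likelihood test, adjusted p = 0.0445). None of the 31 was lower at an adjusted p under 0.05, in edgeR, limma-voom or DESeq2. Over all tested genes 1.23% were called higher and 0.159% lower, so 1 of 31 higher and 0 of 31 lower lies near the background. With the batch as a replicate block, 4 of the 31 rose, namely Mvd, Pmvk, Fasn and Srebf1, and 0 fell, against 3.01% of all genes called higher and 1.03% called lower in that fit. Among tested genes above 10 CPM on average, as all 31 were, the blocked fit called 4.96% higher. All 4 genes have a GC content of 55 to 60%. In that range the blocked fit called 4 of 8 genes of the set higher, and 13.07% of other genes above 10 CPM. Under 55% GC it called 0 of 23 genes of the set higher, and 1.74% of other genes of 40 to 55% GC above 10 CPM. The boundary at 55% was set with the values known and encloses all 4 called genes, so these shares are a description and not a test. At an unadjusted p under 0.05, 9 genes were higher and 1 lower in HDM, where 10.4% and 7.69% of all tested genes were. The median log2 fold change (HDM over saline throughout) was −0.00 over the 31 genes and −0.01 over all tested genes, with 15 of the 31 positive and 16 negative.

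The 31 changes were small and were measured tightly. Their standard errors ranged from 0.039 to 0.084 on the log2 scale. For 25 of the 31 genes the 95% interval lay within ±0.25 on the log2 scale, that is, within a 1.19-fold difference either way. In 22 genes the log2 fold change itself was under 0.1 in size. HDM libraries all lay above all saline libraries for 7 of the 31 genes, which were Mvd, Tm7sf2, Srebf1, Srebf2, Scap, Fasn and Fads2, where 6.25% of all tested genes did so. For Msmo1 alone of the 31 they all lay below, against 4.39% of all tested genes. These shares cover genes of every level and GC content, and shares for genes like the 31 were not computed. All of the 7 but Fads2 have a GC content of 55 to 60%. In that range 81.99% of other genes above 10 CPM had a positive log2 fold change. Within batches, HDM was higher than saline for 15 of the 31 genes in batch 1, 27 in batch 2, 12 in batch 3 and 17 in batch 4.

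**Figure D2:**
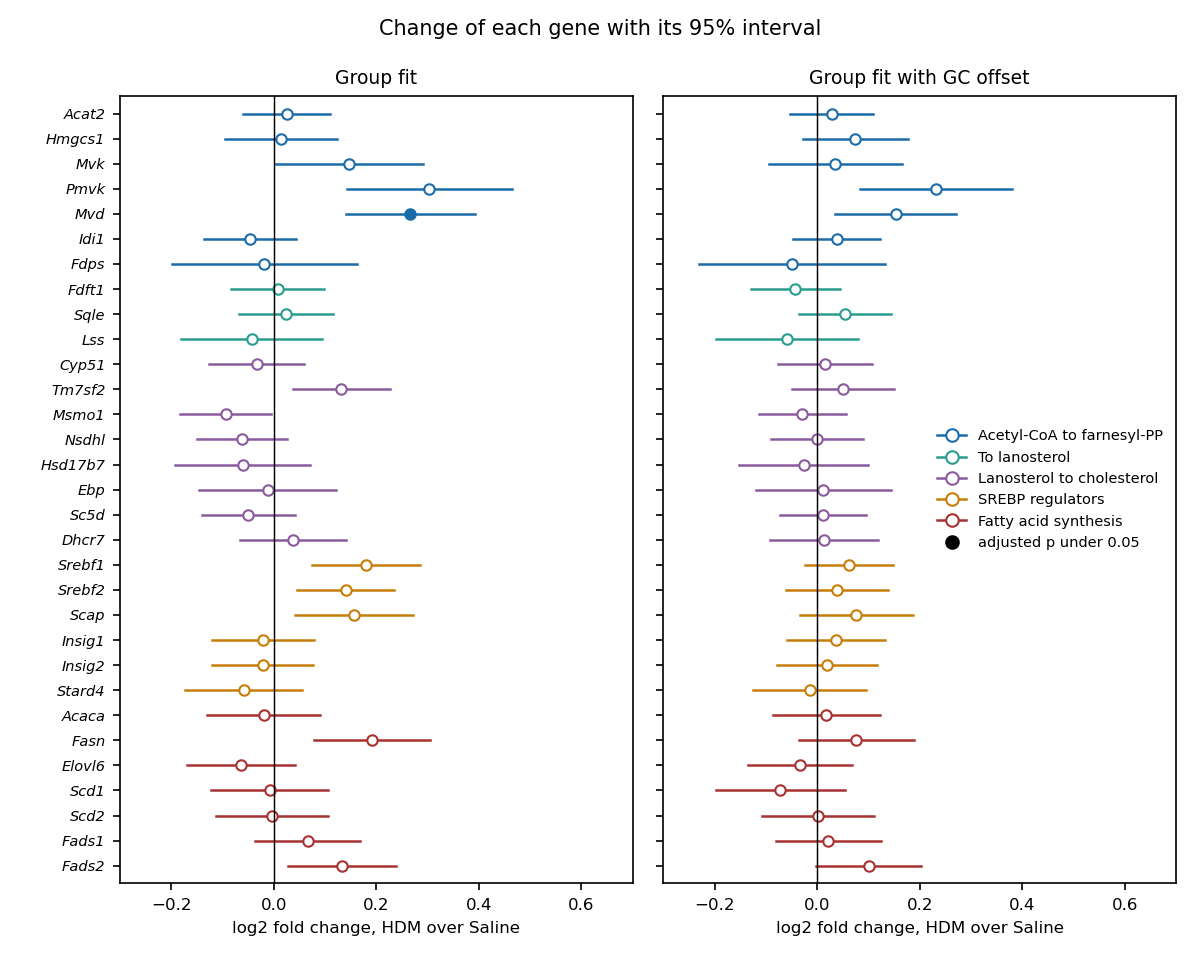
Log2 fold change of each gene, HDM over saline, with its 95% interval (not adjusted for the number of genes), in the fit on group alone (left) and in the same fit with a per-library offset for GC content (right). Filled points have an adjusted p under 0.05: Mvd at 0.27 on the left, and 0 genes on the right.

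The enzymes from acetyl-CoA to farnesyl diphosphate held the set's 2 largest differences. Mvd (ENSMUSG00000006517, GRCm38 chromosome 8, 122433601 to 122443422, minus strand) had 59.4, 61.9, 54.4 and 60.2 CPM in HDM batches 1 to 4 and 54.3, 46.4, 47.7 and 47.9 CPM in saline. All HDM values lay above all saline values, but HDM in batch 3 and saline in batch 1 differed by little. The means were 59.0 ± 3.22 CPM in HDM, against 49.1 ± 3.55 CPM in saline (a log2 fold change of 0.27, SE 0.059, 95% interval 0.14 to 0.39). HDM was higher in 4 of 4 batches. The call did not hold without HDM 1, HDM 2, HDM 4, saline 2, saline 3 or saline 4, nor without any whole batch, with edgeR adjusted p of up to 0.252 and log2 fold changes of 0.21 to 0.31.

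Pmvk (ENSMUSG00000027952, chromosome 3, 89454541 to 89469013, plus strand) encodes phosphomevalonate kinase, the step just before Mvd. It had 77.1, 78.4, 69.9 and 69.6 CPM in HDM, against 69.9, 58.5, 58.1 and 52.6 CPM in saline. The groups overlapped only through saline in batch 1, and HDM was higher in 4 of 4 batches. Its log2 fold change was 0.30 (SE 0.075, 95% interval 0.14 to 0.47, edgeR adjusted p = 0.0639, and 0.0162 with the replicate block). The other mevalonate enzymes did not pass in either fit. Mvk, the mevalonate kinase that acts before Pmvk, had 47.0, 41.2, 39.1 and 47.6 CPM in HDM, against 41.8, 40.2, 39.2 and 36.9 CPM in saline, with overlapping groups and a log2 fold change that came to 0.15 (adjusted p = 0.271 in edgeR).

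Hmgcs1, which makes HMG-CoA at the pathway's entry, had 919, 962, 929 and 972 CPM in HDM, against 934, 856, 958 and 997 CPM in saline. The groups overlapped, and HDM was higher in 1 of 4 batches, batch 2, where saline was lowest. Its log2 fold change was 0.01, with a 95% interval of −0.09 to 0.12. Of its exon bases, 12.1% lie under the opposite-strand gene Gm48342, at 2.16 CPM in HDM, against 1.06 CPM in saline. Acat2, the cytosolic thiolase that joins acetyl-CoA units, and Idi1, the isopentenyl diphosphate isomerase, had log2 fold changes of 0.03 (−0.06 to 0.11) and −0.05 (−0.14 to 0.04). Fdps, the farnesyl diphosphate synthase, had 14.6, 15.5, 14.1 and 14.2 CPM in HDM, against 16.6, 13, 15.4 and 14.2 CPM in saline, with a log2 fold change of −0.02 and the widest interval of the set, −0.20 to 0.16. Summed over these 7 enzymes, the level was 1334 to 1405 CPM in HDM, against 1247 to 1388 CPM in saline, and saline 2 was the lowest of the 8 libraries.

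The promoters of 5 genes are shown because 4 of them, Mvd, Pmvk, Fasn and Srebf1, were called in the blocked fit, and because Hmgcs1, which was not called, holds the sterol element. They come from RefSeq (GRCm38.p6), which held at least 1 start for 24 of the 31 genes. Each line gives the 150 bases just upstream of the annotated start, 5′ to 3′ on the gene's strand. Capitals mark the sterol regulatory element core TCACNCCAC, the NF-Y box CCAAT and the Sp1 box GGGCGG, each searched on both strands, so that their reverse complements are in capitals too.
Hmgcs1, chr13:119690201-119690350, plus strand: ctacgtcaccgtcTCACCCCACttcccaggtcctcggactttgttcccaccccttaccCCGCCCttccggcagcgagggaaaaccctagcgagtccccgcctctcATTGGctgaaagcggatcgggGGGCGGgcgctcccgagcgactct
Mvd, chr8:122443423-122443572, minus strand: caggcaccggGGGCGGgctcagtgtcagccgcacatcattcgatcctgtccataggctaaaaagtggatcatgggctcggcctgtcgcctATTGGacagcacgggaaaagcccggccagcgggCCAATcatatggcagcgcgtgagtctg
Pmvk, chr3:89454391-89454540, plus strand: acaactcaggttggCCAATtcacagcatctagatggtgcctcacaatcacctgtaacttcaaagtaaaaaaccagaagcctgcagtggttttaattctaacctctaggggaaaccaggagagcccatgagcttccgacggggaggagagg
Fasn, chr11:120824548-120824697, minus strand: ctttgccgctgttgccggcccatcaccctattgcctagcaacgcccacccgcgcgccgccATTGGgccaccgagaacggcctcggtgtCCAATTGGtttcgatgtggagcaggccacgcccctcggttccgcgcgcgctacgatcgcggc
Srebf1, chr11:60222582-60222731, minus strand: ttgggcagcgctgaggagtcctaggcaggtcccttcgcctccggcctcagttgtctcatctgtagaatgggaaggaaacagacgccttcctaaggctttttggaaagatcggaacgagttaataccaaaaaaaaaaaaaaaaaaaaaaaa

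In these stretches Hmgcs1 holds 1 sterol core, starting 137 bases upstream of the start, with 1 NF-Y box and 2 Sp1 boxes. Mvd holds 2 NF-Y boxes and 1 Sp1 box, Pmvk 1 NF-Y box, and Fasn 3 NF-Y boxes, of which 2 overlap on opposite strands in the run CCAATTGG. The stretch of Srebf1 holds 0 matches to the 3 motifs. RefSeq lists 3 starts for Srebf1 and 2 for Pmvk, of which 1 each is shown. Over windows from 250 bases before to 50 after a start, the sterol core was in 1 of 24 genes of the set, Hmgcs1, and in 1.44% of 27025 genes in the table. NF-Y boxes were in 19 of the 24 (79.2%) and in 41.06% of all genes, and Sp1 boxes in 20 of the 24 (83.3%) and in 38.2% of all genes. Srebf1 is among the genes with each of these 2 boxes, through bases outside the stretch shown. These are matches of letters and not measured binding sites. Sterol elements that differ from TCACNCCAC, or lie outside the windows, were not searched for, so a gene without a match may still hold one.

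The 3 enzymes that turn farnesyl diphosphate into lanosterol did not differ detectably, with log2 fold changes of −0.04 to 0.02. Fdft1, which makes squalene, had 386, 376, 374 and 395 CPM in HDM, against 395, 377, 365 and 388 CPM in saline, and the groups overlapped (log2 fold change 0.01, 95% interval −0.08 to 0.10). Of its exon bases, 18.3% lie under exons of Ctsb on the opposite strand, a gene at 1535 CPM in HDM, against 1574 CPM in saline. If strand was not used in counting, reads of the shared part may not have been assigned to Fdft1. Fdft1 counts could hold reads of Ctsb only if reads that overlap both genes were kept. How such reads were handled is not known here, so the level of Fdft1 is uncertain. Sqle, the squalene epoxidase, had 289 ± 5.83 CPM in HDM, against 284 ± 11.6 CPM in saline, with an interval of −0.07 to 0.12. Lss, the lanosterol synthase, had 85.9, 92.0, 91.3 and 88.2 CPM in HDM, against 103, 82.4, 97.2 and 85.9 CPM in saline, and its HDM libraries lay inside the saline range.

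Of the 8 enzymes between lanosterol and cholesterol, 0 passed in either edgeR fit, and Tm7sf2 was higher and Msmo1 lower by an unadjusted p under 0.05. Of the 8, 6 had negative log2 fold changes, and the 8 ran from −0.09 to 0.13. Msmo1, the methylsterol monooxygenase, had 269, 257, 262 and 265 CPM in HDM, against 272, 276, 283 and 293 CPM in saline. Every HDM library lay below every saline library, by a log2 fold change of −0.09 (an SE of 0.041 and an edgeR adjusted p = 0.249). Tm7sf2, a sterol reductase, showed the opposite order, with 69.2, 70.8, 65.1 and 70.1 CPM in HDM, against 61.9, 62.2, 62 and 65.0 CPM in saline (a log2 fold change of 0.13 with an SE of 0.044 and an edgeR adjusted p = 0.139). Of its exon bases, 12.1% are shared with the same-strand gene Vps51. Nsdhl, a dehydrogenase that acts beside Msmo1 in removing methyl groups, had 118 ± 3.49 CPM in HDM, against 123 ± 3.33 CPM in saline and was lower in HDM in 4 of 4 batches (log2 fold change −0.06, edgeR adjusted p = 0.453). The demethylase Cyp51, the ketoreductase Hsd17b7, the isomerase Ebp and the desaturase Sc5d had log2 fold changes of −0.03, −0.06, −0.01 and −0.05. Dhcr7, which carries out a last reduction to cholesterol, had 0.04, with an interval of −0.07 to 0.14.

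The regulators split into 3 genes that were higher in HDM in all libraries and 3 that overlapped. Srebf1 (ENSMUSG00000020538, chromosome 11, 60199089 to 60222581, minus strand), whose SREBP1 products act mainly on fatty acid genes, had 74.5, 75.7, 70.3 and 77 CPM in HDM, against 69.5, 67.3, 62.7 and 63.1 CPM in saline. HDM was above saline in every library, with a log2 fold change of 0.18 (an SE of 0.049 and an edgeR adjusted p = 0.0792, and 0.0450 with the replicate block). Srebf2, whose product acts mainly on cholesterol genes, had 242, 247, 250 and 267 CPM in HDM, against 224, 228, 224 and 236 CPM in saline. Its log2 fold change was 0.14 (SE 0.044), with an edgeR adjusted p of 0.122, or 0.0531 with the replicate block. Scap had 76.5, 67.8, 68.1 and 73.4 CPM in HDM, against 61.9, 67.7, 61.0 and 65.9 CPM in saline, with HDM 2 just above saline 2 (log2 fold change 0.16 with an SE of 0.053 and an edgeR adjusted p = 0.147). Of the exon bases of Scap, 13.2% lie under an opposite-strand gene that stayed below 0.2 CPM on average in both groups.

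Insig1, itself a well-known SREBP target, had 120, 120, 126 and 131 CPM in HDM, against 129, 118, 128 and 129 CPM in saline, with a log2 fold change of −0.02 and an interval of −0.12 to 0.08. Insig2 had the same log2 fold change and interval. Stard4, a sterol transfer protein, had −0.06 (−0.17 to 0.06). Per length, Insig1 stood above Insig2 by 2.91 to 3.19-fold in HDM libraries and 2.98 to 3.17-fold in saline libraries. Srebf2 stood above Srebf1 by 2.54 to 2.79-fold in HDM libraries and 2.53 to 2.94-fold in saline libraries. These balances between paired regulators overlapped between the groups.

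Among the 7 enzymes of fatty acid synthesis, elongation and desaturation, Fasn, the fatty acid synthase (ENSMUSG00000025153, chromosome 11, 120805846 to 120824547, minus strand), had 322, 334, 324 and 374 CPM in HDM, against 291, 299, 286 and 308 CPM in saline. The groups did not overlap, and HDM 4 was the highest library. Its log2 fold change was 0.19 (SE 0.052, 95% interval 0.08 to 0.30, edgeR adjusted p = 0.0819, and 0.0270 with the replicate block). Acaca, the acetyl-CoA carboxylase that feeds Fasn, had 168, 188, 184 and 191 CPM in HDM, against 175, 181, 198 and 187 CPM in saline, and the groups overlapped (log2 fold change −0.02, 95% interval −0.13 to 0.09). Elovl6, an elongase, had −0.06 (−0.17 to 0.04).

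Scd2 had 2001, 2112, 2039 and 2186 CPM in HDM, against 1968, 2041, 2094 and 2258 CPM in saline, and Scd1 had 1044, 1156, 1104 and 1146 CPM in HDM, against 1030, 1118, 1125 and 1204 CPM in saline. Both overlapped, with 95% intervals of −0.11 to 0.10 for Scd2 and −0.12 to 0.11 for Scd1. The ratio of Scd2 to Scd1 per length was 1.64 to 1.72 in HDM and 1.64 to 1.71 in saline. Fads2, the desaturase that starts the synthesis of polyunsaturated fatty acids, had 167, 177, 166 and 180 CPM in HDM, against 150, 166, 149 and 164 CPM in saline. Its libraries did not overlap, though HDM 3 and saline 2 nearly met, and its log2 fold change was 0.13 (SE 0.049, edgeR adjusted p = 0.178, and 0.0562 with the replicate block). Fads1, a desaturase of the same chain of reactions, had 175 ± 7.49 CPM in HDM, against 167 ± 8.26 CPM in saline and lay higher with HDM within 4 of 4 batches (log2 fold change 0.07, edgeR adjusted p = 0.488).

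**Figure D3:**
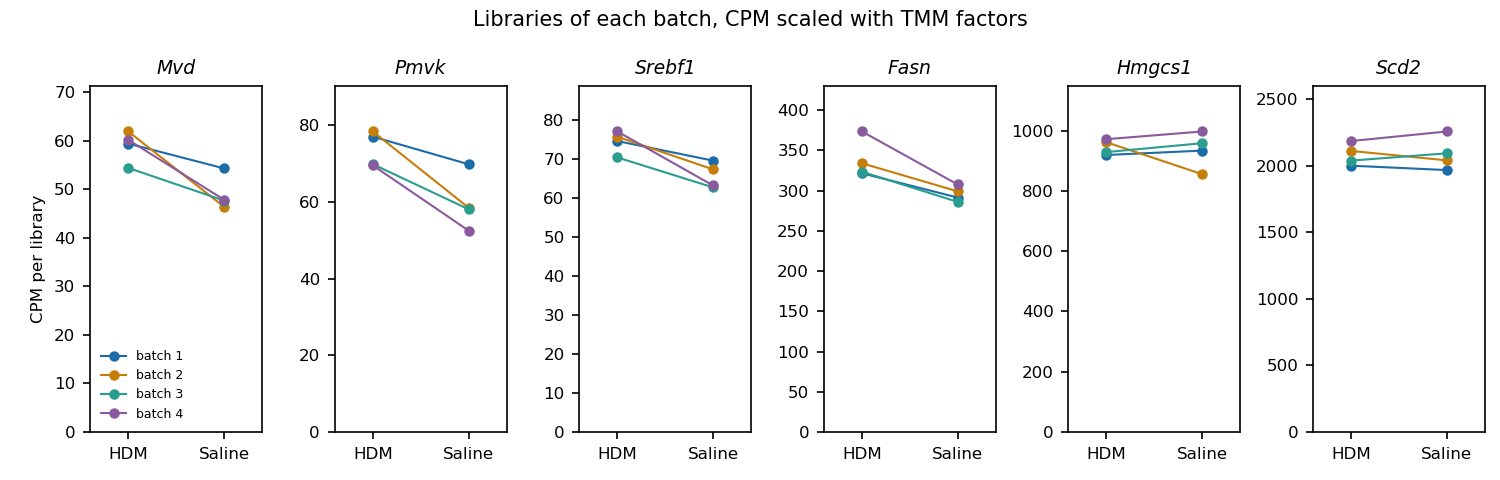
CPM of Mvd, Pmvk, Srebf1, Fasn, Hmgcs1 and Scd2 in each library, HDM at the left and saline at the right of each panel, with lines joining the libraries of a batch. All 4 lines of Mvd, Pmvk, Srebf1 and Fasn are higher in HDM, whereas those of Hmgcs1 and Scd2 cross.

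The order of the differences followed the GC content of the transcripts. The 8 genes with a mean transcript GC of 55% or more were Srebf1, Fasn, Mvd, Mvk, Srebf2, Tm7sf2, Scap and Pmvk. All 8 had a positive log2 fold change and an unadjusted p under 0.05, with a median log2 fold change of 0.17. Of the 23 genes under 55% GC, 7 were positive, and the median was −0.02. Across the 31 genes, GC content and log2 fold change had Pearson's r of 0.814 and Spearman's rho of 0.838, a description across genes that share the 8 libraries and are not independent. Other tested genes above 10 CPM also differed by GC content: those of 55 to 60% GC had a median of 0.09 (2143 genes, 81.99% positive), and those of 40 to 55% GC a median of −0.03 (7528 genes, 39.21% positive). The mean GC of genes weighted by their counts was 49.87 to 49.99% in HDM libraries and 49.53 to 49.76% in saline libraries, without overlap. The boundary at 55% was chosen after the values were seen.

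**Figure D4:**
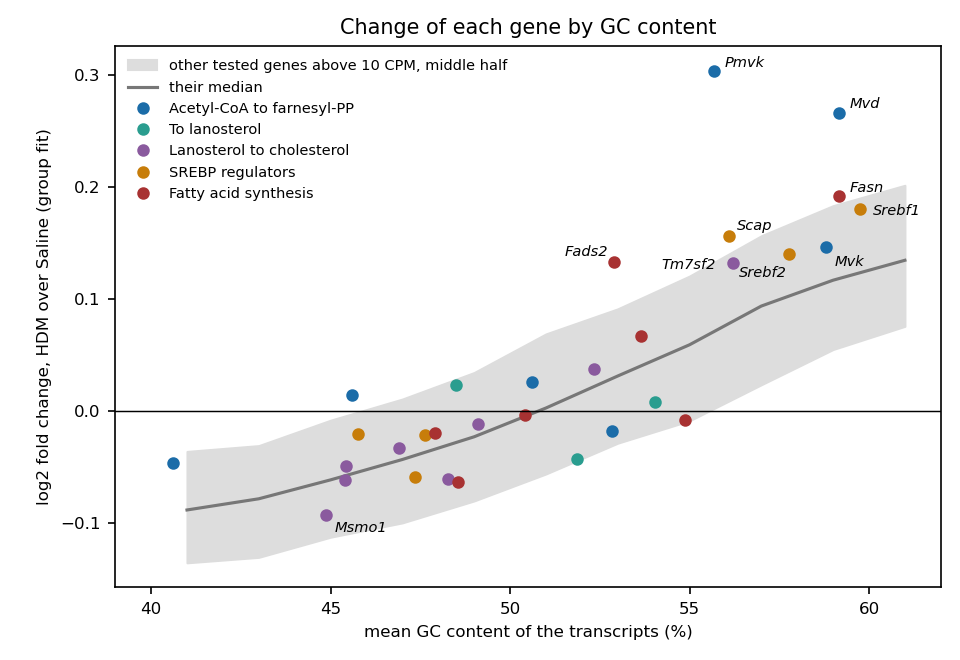
Log2 fold change (HDM over saline, fit on group alone) of each of the 31 genes against the mean GC content of its transcripts, with the median and the middle 50% of other tested genes above 10 CPM in steps of 2% GC. The genes follow the slope of the grey band. Above the middle 50% of their own step lie 5 genes, which are Pmvk at 0.30, Mvd at 0.27, Fasn at 0.19, Fads2 at 0.13 and Hmgcs1 at 0.01.

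The 31 were also set against other genes of like GC content. In steps of 2% GC, 26 of the 31 lay within the middle 50% of other genes above 10 CPM, 0 lay below it, and 5 lay above it, namely Pmvk, Mvd, Fasn, Fads2 and Hmgcs1. By definition this band holds 50% of those other genes, so the 26 of 31 exceed that share. The median SE was 0.0491 for the 31 and 0.0596 for tested genes above 10 CPM, and its part in this count was not tested. With a per-library offset for GC content, 0 of the 31 passed in edgeR (Pmvk and Mvd, 2 genes, did at an unadjusted p under 0.05, both higher), and 0.0% of all tested genes did. Pmvk then had a log2 fold change of 0.23 (95% interval 0.08 to 0.38, edgeR adjusted p = 0.220) and Mvd 0.15 (0.03 to 0.27, adjusted p = 0.306). Fasn had 0.08, Srebf1 0.06, Srebf2 0.04, Scap 0.08, Tm7sf2 0.05 and Mvk 0.04. With block and offset together, 0 of the 31 passed in edgeR (Pmvk, Mvd and Fads2, 3 genes, did at an unadjusted p under 0.05) and 0.216% of all tested genes did, and Pmvk had 0.23 with an adjusted p of 0.0776.

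Marker levels of the cells in the ganglia moved with the groups in part. The summed level of the 10 neuron markers was 7863 to 8520 CPM in HDM, against 7526 to 7835 CPM in saline, without overlap. Of the 10, 6 had a positive and 4 a negative log2 fold change, and the median was 0.11, or 0.05 with the GC offset. The 3 neuron markers with the largest differences in CPM, named after their values were seen, had a GC content of 58.08 to 59.93%: Prph averaged 1456 CPM in HDM, against 1211 CPM in saline, Tubb3 1963 CPM in HDM, against 1719 CPM in saline, and Uchl1 1503 CPM in HDM, against 1357 CPM in saline. The 14 myelinating Schwann cell markers summed to 3469 to 3797 CPM in HDM, against 3651 to 4341 CPM in saline, and Pmp22 and Ugt8a among them fell in HDM (edgeR adjusted p = 0.0336 and 0.0422). Pmp22 had a log2 fold change of −0.23, and −0.30 with the GC offset (adjusted p = 0.0548 in edgeR). Ugt8a had −0.33, and −0.25 with the offset (adjusted p = 0.203 in edgeR). The median over the 14 was −0.17, and −0.20 with the offset. In whole ganglia, fewer cells of a type and less RNA per cell cannot be told apart. Markers of fat cells, which express fatty acid synthesis genes strongly, were low: the 10 summed to 20.04 to 40.7 CPM in HDM, against 20.45 to 33.98 CPM in saline, and Plin1, Lep and Retn stayed under 1 CPM in all libraries. Satellite glia markers summed to 1253 to 1346 CPM in HDM, against 1272 to 1393 CPM in saline, fibroblast markers to 733 to 785 CPM in HDM, against 742 to 1031 CPM in saline, macrophage markers to 57.6 to 75.4 CPM in HDM, against 56.1 to 91.7 CPM in saline, and endothelial markers to 108 to 122 CPM in HDM, against 99.1 to 146 CPM in saline. Sympathetic neuron markers reached 799 CPM in HDM 4, against 269 to 297 CPM in the other HDM libraries and 123 to 354 CPM in saline, and erythroid markers summed to 45.6 to 77.7 CPM in HDM, against 73.0 to 246.5 CPM in saline. The part of these cell types in the values of the lipid genes was not tested.

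Genes that supply, store or burn the same lipids mostly did not pass either. Over all tested genes, the fit on group alone called 1.23% higher and 0.159% lower, and the blocked fit 3.01% higher and 1.03% lower. Of 19 genes of acetyl-CoA supply and other lipogenic steps, 1 rose and 0 fell in both edgeR fits, with a median log2 fold change of 0.00. The gene that rose was Mid1ip1, whose product promotes the polymerisation of acetyl-CoA carboxylase, with 144 ± 4.38 CPM in HDM, against 125 ± 4.09 CPM in saline (a log2 fold change of 0.20 with an SE of 0.042 and an edgeR adjusted p = 0.0342). With the GC offset it had 0.12, with an adjusted p of 0.274. Of 16 genes of sterol uptake, storage and export, 0 passed in the fit on group alone and Apoe, which encodes an apolipoprotein of lipid transport, rose in the blocked fit, with 1854 ± 118 CPM in HDM, against 1574 ± 212 CPM in saline (a log2 fold change of 0.24 and an adjusted p = 0.151 in edgeR, or 0.0235 with the replicate block). The groups overlapped, with HDM 4 at 1681 CPM and saline 1 at 1816 CPM. Apoe has a GC content of 59.58%, and with the GC offset it had 0.12, with an adjusted p of 0.511 in edgeR. The median log2 fold change of these 16 genes was −0.01. Of 16 genes of fatty acid oxidation, 0 passed in either edgeR fit, with a median of 0.04 and 11 of the 16 positive. Of all tested genes, 48.54% were positive.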

How the data were processed

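RNA of pooled vagal ganglia was sequenced in 8 libraries, 4 per group, made with a kit for strand-marked mRNA libraries and read from both ends, per the labels' protocols. Per the submitters' processing notes, featureCounts was run on GRCm38 (mm10); for the aligner, versions, strand setting, and the strain, age and sex of the mice, the entry is: not given in the sources used here. The deposited values are raw counts per gene, taken from 1 merged alignment per library per the file headers. Symbols came from GENCODE M21 (55154 of 55335 genes), and GC content is the mean over a gene's transcripts there (99.91% of tested genes).

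Genes were filtered with filterByExpr (17618 kept, 37717 removed), scaled by TMM and tested with edgeR 4.0.16 (R 4.3.3; quasi-likelihood F-test, 2-sided, group as the only term, Benjamini-Hochberg over all tested genes, threshold 0.05). RPKM used the deposited exon lengths. The labels give same-numbered libraries a shared batch, which pairs them, so a fit with the replicate block stands beside the main one; in the data, deviations of paired libraries correlated by −0.05 to 0.04. For the GC offset, log2 CPM was regressed on GC in each library by a natural spline (4 degrees of freedom), using genes whose mean log2 CPM exceeded 3. Alternatives were RLE factors, 2 filters, DESeq2 1.42.0, limma-voom (limma 3.58.1), gene length offsets, a threshold of 0.10 and leaving out libraries or batches. Members and lists were chosen with earlier results of these data known. All 31 members are named; genes of related lists are named where they passed in either fit. Some marker genes are not reported here.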

Additional observations from a re-analysis of the deposited data

Results flagged for a closer look

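In 6 of 62 groups of 4 libraries (31 genes, 2 treatments), 1 library lay far from the other 3, by Dixon's criterion on the gap over the range. Chance gives about 1 in 20 such groups. In saline 4 there were 3 of the 6: Tm7sf2 at 65.03 CPM and Dhcr7 at 117.0 CPM were above the other saline libraries, and Ebp at 31.48 CPM was below them. Insig1 in saline 2 was low, at 118.4 CPM. Cyp51 in HDM 2 was high, at 155.8 CPM, and Fads1 in HDM 4 was high, at 186.1 CPM. None of these genes passed in either edgeR fit.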

How the results depend on the processing

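The count of genes of the set called higher was 1 in the main edgeR fit and also 1 with RLE factors, the filter of 1 CPM in 4 libraries, limma-voom and the gene length offset, though with that offset the gene was Fasn and not Mvd. It was 2 with no filter on low counts, 5 with DESeq2, 4 with the replicate block, 4 with the replicate block and gene length offset, 4 at an adjusted p under 0.10, 0 with the GC offset and 0 with block and GC offset. Leaving out single libraries or batches gave 0 to 2. In each of these settings 0 genes of the set were called lower. Of 682 single-gene values under 22 alternatives, 14 lost the call (all of Mvd), 14 gained one (Pmvk, Srebf1, Srebf2 and Fasn) and 0 called values changed sign. In at least 1 alternative, 14 genes with a log2 fold change of at most 0.05 in size changed sign, none with an adjusted p below 0.388 in any. Over all genes, 0 were called with the GC offset (2143 at an unadjusted p under 0.05), 0 without HDM 1, HDM 2, saline 3 or batch 2, and 843 with DESeq2. The lowest count of a gene of the set in any library was 349, and the median 95% interval extended 0.11 either side on the log2 scale.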
